A study of Homo sapiens with 2 samples.

Results

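Among the 192 wells of a compound screen in K562 cells, 2 wells held THZ531, an inhibitor of CDK12 and CDK13, and 6 held AZ5576, an inhibitor of CDK9. These 8 wells were taken by the compound name that the deposited annotation gives to each well and were compared directly with each other, with 24 wells of DMSO, the vehicle, given beside them. K562 is an established cell line from a human chronic myeloid leukaemia and keeps erythroid traits. Every well was exposed for 6 h, and its RNA was read by MAC-seq, in which each well of a plate gets its own barcode before the 3′ ends of the polyadenylated RNAs are sequenced together. Both plates held the same 74 treatments and DMSO in the same layout, as technical duplicates. THZ531 therefore had 1 position and barcode, used on both plates, and AZ5576 had 3 positions. No dose is given for either compound, so the contrast is not one of matched doses. Compound and well position cannot be told apart for THZ531, and the p-values below measure the spread between wells of 1 experiment.

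CDK9, with a T-type cyclin, forms P-TEFb, the kinase that releases RNA polymerase II from its pause near the promoter into productive elongation. P-TEFb is held inactive by the 7SK RNA with HEXIM1, LARP7 and the capping enzyme MEPCE, and it is brought to genes by BET proteins and the super elongation complex. CDK12 and CDK13, with cyclin K, phosphorylate the polymerase further along the gene, and are known for keeping up elongation through long genes and for the use of distal polyadenylation sites. Loss of CDK12 activity is known to lower long DNA repair genes such as BRCA1, ATM and FANCD2. Inhibitors of CDK9 are known to lower short-lived mRNAs, among them those of MYC, of MCL1 and of immediate early genes.

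The THZ531 wells held 418108 and 358938 counts to human genes, against 365275 to 768316 in the AZ5576 wells. Human counts per count of the ERCC spike-in RNAs were 3.79 and 2.84 in THZ531 wells and 2.96 to 4.32 in AZ5576 wells, with a median of 4.94 in DMSO wells. In such bulk samples fewer cells and less RNA per cell cannot be told apart. Mitochondrial genes took 11.5% and 10.9% of human counts in THZ531 wells, 11.9% to 13.6% in AZ5576 wells and 8.52% to 10.6% in DMSO wells. Marker levels are CPM, here counts relative to all human counts of the well, without TMM scaling. The 10 markers of the K562 line summed to 31400 to 31600 CPM in THZ531 wells and 29100 to 33400 CPM in AZ5576 wells. They summed to 23000 to 28500 CPM in DMSO wells, and none was at 0. Fibroblast markers were at 0 in both THZ531 wells and reached at most 2.68 CPM in AZ5576 wells. T cell markers summed to 95.7 to 97.5 CPM in THZ531 wells and 76.7 to 117 CPM in AZ5576 wells, with CD2 and CD8A at 0 in both. B cell markers reached at most 5.57 CPM in THZ531 wells and 10.9 CPM in AZ5576 wells, monocyte markers 14.4 CPM in THZ531 wells and 22.8 CPM in AZ5576 wells, and epithelial markers 220.0 CPM in THZ531 wells and 162 CPM in AZ5576 wells, with CDH1, KRT5 and KRT14 at 0. The levels below are CPM relative to the TMM-scaled total of the well. There, 1 count was worth 2.81 and 3.12 CPM in the THZ531 wells and 1.64 to 3.31 CPM in the AZ5576 wells.

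Promoter letters are shown for 5 of the genes that carry the difference, chosen after their values were seen. They are JUNB, ID1 and IER2 of the early response, BTG1 of mRNA decay, and HEXIM1, the inhibitor of P-TEFb. Each line holds the 100 bases just before the RefSeq start of the gene, 5′ to 3′ on the gene's strand, from RefSeq on GRCh38.p14, and capitals mark the letters TATAAA.
JUNB, chr19:12791386-12791485, plus strand: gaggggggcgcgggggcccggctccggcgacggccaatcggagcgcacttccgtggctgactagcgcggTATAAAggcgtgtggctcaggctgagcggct
ID1, chr20:31605189-31605288, plus strand: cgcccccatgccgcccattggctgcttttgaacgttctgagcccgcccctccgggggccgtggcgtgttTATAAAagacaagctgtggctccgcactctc
BTG1, chr12:92145847-92145946, minus strand: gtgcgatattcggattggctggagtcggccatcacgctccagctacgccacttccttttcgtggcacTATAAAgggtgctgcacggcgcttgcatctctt
HEXIM1, chr17:45148375-45148474, plus strand: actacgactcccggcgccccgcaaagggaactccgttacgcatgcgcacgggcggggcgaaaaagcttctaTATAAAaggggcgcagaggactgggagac
IER2, chr19:13150311-13150410, plus strand: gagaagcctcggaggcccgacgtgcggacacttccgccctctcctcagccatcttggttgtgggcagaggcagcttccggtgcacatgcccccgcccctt
The letters begin 31 bases before the start in JUNB and ID1, 33 in BTG1 and 29 in HEXIM1, and they are not in this window of IER2. The share with these letters among 5 picked genes follows from the choice and gives no measure of how common they are among the genes called. Of the 35116 promoters in the RefSeq table, 10.7% hold TATAAA on either strand within 250 bases upstream, and 2.39% hold it on the gene's strand between 45 and 20 bases before the start. TGACGTCA, which reads the same on both strands and cannot overlap TATAAA, was searched too. It was in the 250 upstream bases of 0 of these 5 genes and of 1.65% of all promoters. Only 78.6% of the genes higher in THZ531 wells and 67.9% of the genes tested have an entry in that table, under the 80% needed, so a comparison of shares between gene groups is void. A match is a description of letters only.

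The 2 compounds differed at 186 of 10312 genes tested (1.80%; edgeR's quasi-likelihood test with a plate term, adjusted p under 0.05). THZ531 wells were higher at 159 of them (1.54%) and lower at 27 (0.262%). These shares of all genes tested are the background for the counts of each list below. In CPM, both THZ531 wells lay above all 6 AZ5576 wells at 713 genes (6.91%) and below all 6 at 735 (7.13%). Among the genes called, the wells did not overlap in 156 of the 159 higher and 25 of the 27 lower. All 159 higher and all 27 lower genes had the same sign within each plate. Both this and the lack of overlap follow largely from calling the genes on the same wells, so neither is separate support. The median log2 difference was -0.05 over all genes tested and the median half-width of its 95% interval was 1.04. That interval is not adjusted for the number of genes, and a call needs a smaller p. Differences under about this size were thus mostly not detectable, and larger ones can have been missed too. Without 1 THZ531 well the count fell to 87 genes (without the plate 1 well) and 114 genes (without the plate 2 well), where the lone well is assumed to vary like those of other treatments. Within plate 1 alone 61 genes were called and within plate 2 alone 57. Against the AZ5576 wells of 1 position at a time, 104, 134 and 91 genes were called, while the 3 AZ5576 positions differed from each other at 0, 1 and 0 genes in edgeR's test, with 515, 496 and 427 at an unadjusted p under 0.05.

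**Figure D1:**
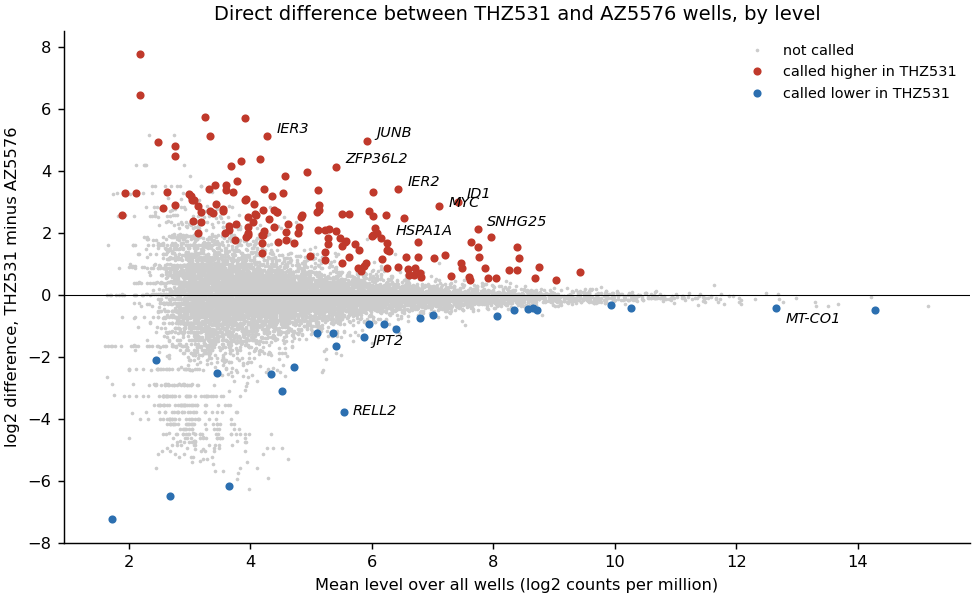
Each point is 1 of the 10312 genes tested, placed by its mean level over all wells (horizontal axis, log2 CPM) and by the log2 difference of THZ531 minus AZ5576 wells (vertical axis). The 159 genes called higher in THZ531 (red) reach up to abundant genes, and the 27 called lower (blue) are fewer and mostly smaller in size among abundant genes.

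The early response genes set the compounds apart most clearly. Of 34 measured immediate early and delayed early regulators, genes that cells switch on within minutes of a stimulus and whose mRNAs are short-lived, 18 were higher in THZ531 wells and 0 lower. Their median log2 difference was 2.88, against -0.05 over all genes tested, and 33 of the 34 were above 0. With DESeq2 17 and with limma-voom 20 were higher, and 0 were lower with either. Of the 18, 13 were called in each of the 8 fits that left out 1 well. The list was drawn up with results of these data known, and its other 16 members had too few counts to be tested.

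JUNB, a subunit of the AP-1 transcription factor, had 486 and 399 CPM in THZ531 wells, against 9.93 to 16.5 CPM (median 14.1) in AZ5576 wells and 28.4 to 75.3 CPM (median 44.7) in DMSO wells. Both THZ531 wells were above every DMSO well and all AZ5576 wells were below every DMSO well. The direct log2 difference was 4.99 ± 0.22 (SE; adjusted p = 3.42e-50, edgeR), a 31.8-fold difference. IER3, an early response gene linked to cell survival, had 194 and 175 CPM in THZ531 wells, against 3.27 to 8.19 CPM (median 4.32) in AZ5576 wells and 3.73 to 45.4 CPM (median 16.3) in DMSO wells. Its log2 difference of 5.13 ± 0.32 was 35.1-fold (adjusted p = 1.17e-32, edgeR). THZ531 wells stood above the DMSO range, whereas the AZ5576 wells lay at its lower end. IER2, a nuclear early response protein, had 755 and 621 CPM in THZ531 wells, against 52.9 to 94.5 CPM (median 58.0) in AZ5576 wells and 47.5 to 86.4 CPM (median 66.5) in DMSO wells. It differed 10.7-fold between the compounds (log2 3.42 ± 0.15, adjusted p = 1.29e-49, edgeR), and here the AZ5576 wells overlapped the DMSO wells. JUN, the other AP-1 subunit called, had 36.5 and 18.7 CPM in THZ531 wells, 1.64 to 9.93 CPM in AZ5576 wells and a DMSO median of 3.58 CPM, and was not called without the plate 1 THZ531 well (log2 2.38). FOS had 1 count in the THZ531 wells and 2 in the AZ5576 wells together, so that no difference was detectable at this depth.

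ID1, ID2 and ID3, whose proteins block helix-loop-helix transcription factors, were all higher in THZ531 wells. ID1 had 211 and 134 CPM in THZ531 wells, against 9.91 to 28.2 CPM (median 21.9) in AZ5576 wells and 97.4 to 224 CPM (median 138) in DMSO wells. Its THZ531 wells lay within the DMSO range and its AZ5576 wells far below it, with a direct log2 difference of 2.99 ± 0.26 (adjusted p = 2.38e-19, edgeR). ID2 had 21 counts in the THZ531 wells and 2 in the AZ5576 wells, a ratio per total count of 45.5 with a 95% counting interval of 11.1 to 400.0. ID3 had 11.2 and 31.2 CPM in THZ531 wells and at most 4.34 CPM in AZ5576 wells (log2 difference 3.39 ± 0.67), and was not called without the plate 2 THZ531 well, at 2.49. HES1, a repressor best known as a target of Notch, had 64.6 and 87.4 CPM in THZ531 wells, against 0 to 8.18 CPM in AZ5576 wells and 6.40 to 25.3 CPM in DMSO wells (log2 difference 3.85 ± 0.39). SGK1, a kinase of hormone and stress signalling, had 33.7 and 40.6 CPM in THZ531 wells and no count in any AZ5576 well. Against a floor of 3 counts over the 6 AZ5576 wells, SGK1 was at least 36.1-fold higher in THZ531 wells. HES1, SGK1, ID2 and ID3 were picked from the list after their values were seen.

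MYC, the growth-promoting transcription factor, had 126 and 99.9 CPM in THZ531 wells, against 3.31 to 23.9 CPM (median 15.2) in AZ5576 wells and 55.3 to 143 CPM (median 109) in DMSO wells. The THZ531 wells fell inside the DMSO range and the AZ5576 wells did not reach it. MYC differed 7.40-fold between the compounds (log2 2.89 ± 0.29, adjusted p = 1.65e-15, edgeR), by 3.51 within plate 1 and 2.31 within plate 2. MCL1, the short-lived survival factor of the BCL2 family, was not called: it had 19.6 and 18.7 CPM in THZ531 wells, against 6.55 to 19.9 CPM in AZ5576 wells and 23.1 to 54.4 CPM in DMSO wells. Its log2 difference was 0.47, with a 95% interval of -0.45 to 1.39. PIM1, a kinase also on the list, was likewise not called, with 56.1 and 56.2 CPM in THZ531 wells, 16.5 to 47.5 CPM in AZ5576 wells and 102 to 194 CPM in DMSO wells.

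**Figure D2:**
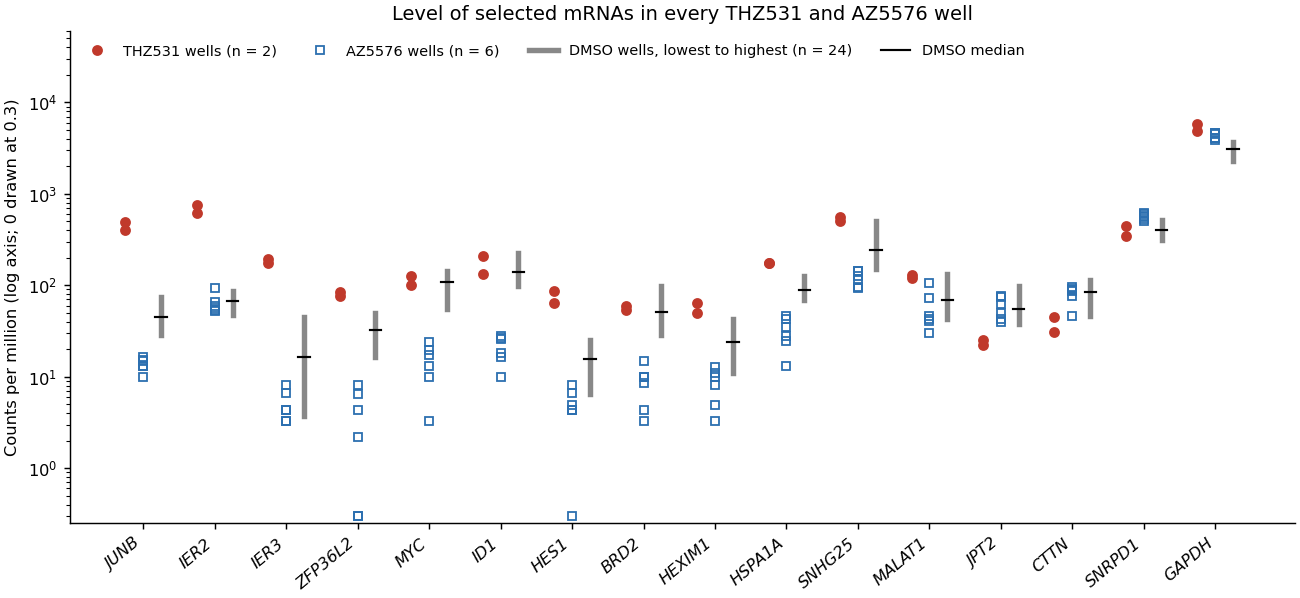
The vertical axis gives CPM on a log scale, with 0 drawn at 0.3, for 16 genes along the horizontal axis. Filled red points are the 2 THZ531 wells, open blue squares the 6 AZ5576 wells, and grey bars span the 24 DMSO wells with a black line at their median. JUNB, IER2 and IER3 stand above the DMSO bar in THZ531 wells, while MYC and ID1 stand on it in THZ531 wells and below it in AZ5576 wells.

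Relative to DMSO, the compounds moved this list to opposite sides of 0. With THZ531 13 of the 34 rose and 2 fell, with a median log2 difference of 1.05. With AZ5576 0 rose and 22 fell, with a median of -1.67. Over all genes tested 750 rose (7.27%) and 821 fell (7.96%) with THZ531, and 1985 rose (19.2%) and 2896 fell (28.1%) with AZ5576. These values are relative to the TMM-scaled total of each well, so a rise is a rise in share. Human counts per ERCC count had a median of 3.32 with THZ531 and 3.66 with AZ5576, against 4.94 with DMSO. Changes in the amount of an RNA per well are not given here. Both comparisons use the same DMSO wells, so their values are given side by side only. JUNB stood at log2 3.24 with THZ531 and -1.74 with AZ5576, IER3 at 3.54 with THZ531 and -1.60 with AZ5576, and IER2 at 3.44 with THZ531 and 0.02 with AZ5576. MYC stood at 0.06 with THZ531 and -2.82 with AZ5576.

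**Figure D3:**
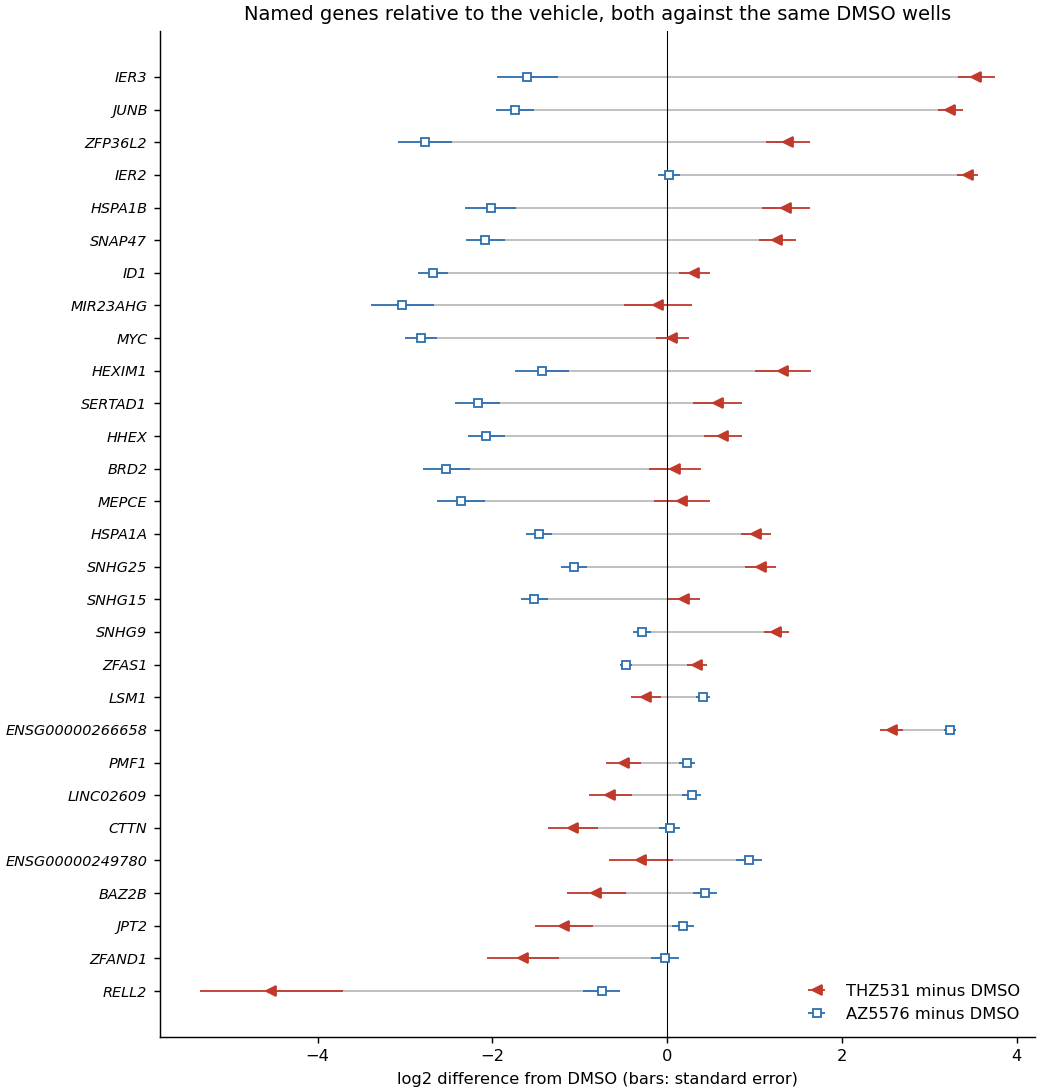
Red triangles give the log2 difference of THZ531 minus DMSO and blue squares that of AZ5576 minus DMSO for genes called between the compounds, with standard errors as bars and a grey line joining the pair of each gene. JUNB lies at 3.24 and -1.74, MYC at 0.06 and -2.82, and CTTN at -1.08 and 0.03.

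Regulators of mRNA decay were called in both directions. Of 47 measured genes of deadenylation, decapping and decay, 5 were higher in THZ531 wells, with a median log2 difference of -0.09 over the list. These were ZFP36, ZFP36L1 and ZFP36L2, whose proteins bind AU-rich elements and bring in the decay machinery, and BTG1 and TOB1, whose proteins recruit the CCR4-NOT deadenylase. The first 4 of these are also members of the early response list. ZFP36L2 had 75.8 and 84.3 CPM in THZ531 wells, against 0 to 8.19 CPM (median 3.23) in AZ5576 wells and 16.6 to 50.1 CPM in DMSO wells (direct log2 difference 4.15 ± 0.40, adjusted p = 6.18e-17, edgeR). The THZ531 wells were above every DMSO well and the AZ5576 wells below. ZFP36L1 had 39.3 and 46.8 CPM in THZ531 wells and at most 8.68 CPM in AZ5576 wells. BTG1 had 15 counts in the THZ531 wells and 3 in the AZ5576 wells, a ratio per total count of 21.7 with a 95% counting interval of 6.13 to 117. LSM1, a subunit of the ring that promotes decapping, was the 1 gene of the list lower in THZ531 wells. It had 132 and 78.0 CPM there, against 152 to 185 CPM in AZ5576 wells and 99.6 to 157 CPM in DMSO wells (log2 difference -0.65 ± 0.18). LSM1 was not called without the plate 2 THZ531 well (log2 -0.34), and TOB1 was not called without the plate 1 THZ531 well (log2 1.96).

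Of 25 measured genes of P-TEFb, its 7SK inhibitor and elongation, 3 were higher in THZ531 wells and 0 lower, with a list median of 0.31. HEXIM1 had 64.6 and 49.9 CPM in THZ531 wells, against 3.30 to 12.9 CPM (median 9.06) in AZ5576 wells and 11.1 to 42.5 CPM in DMSO wells. The 2 THZ531 wells lay above every DMSO well, and the direct log2 difference was 2.76 ± 0.43 (adjusted p = 4.70e-07, edgeR). BRD2, a BET protein, had 53.3 and 59.3 CPM in THZ531 wells, against 3.31 to 14.7 CPM in AZ5576 wells and 28.6 to 97.9 CPM in DMSO wells. MEPCE had 39.3 and 28.1 CPM in THZ531 wells, against 0 to 10.7 CPM in AZ5576 wells and 19.2 to 52.0 CPM in DMSO wells. For both, the THZ531 wells fell inside the DMSO range and the AZ5576 wells below it, and MEPCE was not called without the plate 1 THZ531 well (log2 2.09). Of the 15 measured transcriptional kinases and their cyclins, none was called by edgeR, DESeq2 or limma-voom, with 1 at an unadjusted p under 0.05. CDK12 had 8.42 and 6.24 CPM in THZ531 wells and 0 to 9.83 CPM in AZ5576 wells (log2 difference 0.10, 95% interval -1.48 to 1.68). CCNK, cyclin K, had 30.9 and 34.3 CPM in THZ531 wells and 21.7 to 39.3 CPM in AZ5576 wells, with an interval of -0.66 to 0.77.

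None of 35 measured homologous recombination and Fanconi genes was called between the compounds by edgeR, DESeq2 or limma-voom, with 2 at an unadjusted p under 0.05. The list median was 0.21 in the direct contrast, -0.54 for THZ531 against DMSO and -0.62 for AZ5576 against DMSO. The median half-width of the 95% interval was 1.37 for these genes, so a 2-fold difference would mostly not have been detectable. BRCA1 had 5.61 and 18.7 CPM in THZ531 wells, against at most 11.5 CPM (median 6.24) in AZ5576 wells, with an interval of -0.54 to 2.07. ATM had 5.61 and 6.24 CPM in THZ531 wells, against 3.27 to 26.1 CPM in AZ5576 wells, with an interval of -2.46 to 0.30. FANCD2 had 25.3 and 21.8 CPM in THZ531 wells, against 6.61 to 50.8 CPM in AZ5576 wells, with an interval of -1.66 to 0.40. All 3 overlapped between the compounds. Among 22 cleavage and polyadenylation factors 0 were called by edgeR, 1 was higher with DESeq2 and 2 with limma-voom, and 5 had an unadjusted p under 0.05.

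Genes called higher in THZ531 wells were mostly short, given here as a description with no test. In GENCODE 29, the genes higher in THZ531 wells spanned a median of 5.61 kb, those lower 19.11 kb and all genes tested 20.14 kb, and 99.4%, 96.3% and 98.2% of each had a span. Of genes up to 5 kb 2.99% were higher in THZ531 wells, against 1.80% from 5 to 20 kb, 0.562% from 20 to 50 kb, 0.921% from 50 to 100 kb and 0.931% over 100 kb. The share called lower was 0.451% in genes up to 5 kb, against 0.0768%, 0.281%, 0.212% and 0.254% in the longer bins, so the shortest bin had the highest share in both directions. The median direct log2 difference was -0.07 in genes up to 5 kb and between -0.06 and -0.02 in the 4 longer bins. Relative to the same DMSO wells the median stood at 0.20 with THZ531 and 0.28 with AZ5576 in genes up to 5 kb, and it stood at -0.25 with THZ531 and -0.25 with AZ5576 in genes over 100 kb. The mean level of a gene moved with its span, at a median log2 CPM of 4.92 in the shortest bin and 3.67 in the longest, and its part in the shares called was not tested. Exons were counted in 1 transcript picked per gene. That transcript had a single exon for 23.4% of the genes higher in THZ531 wells, 30.8% of those lower and 16.5% of all.

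**Figure D4:**
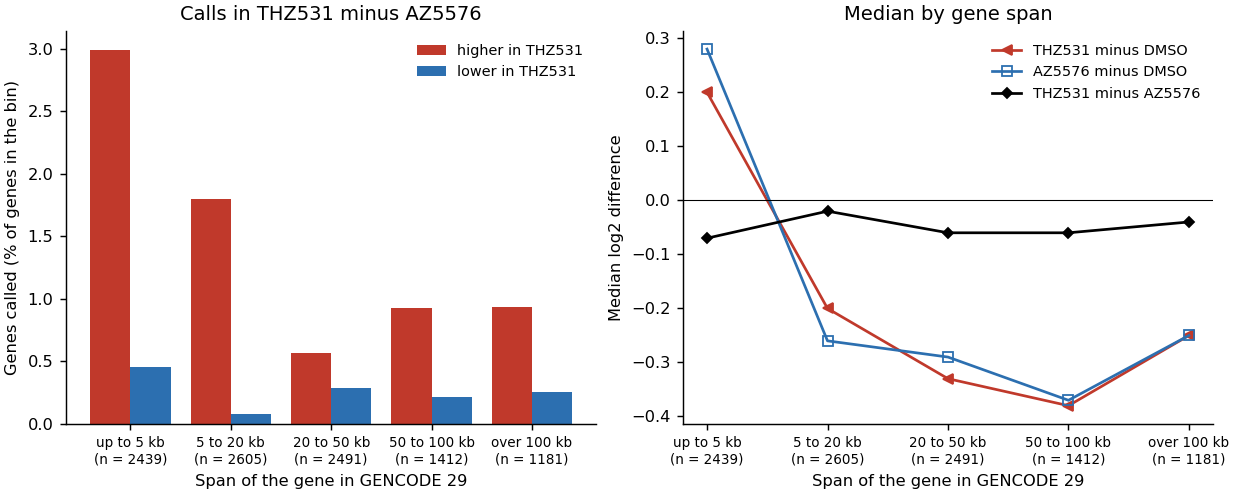
Left, bars give the share of genes called higher (red) and lower (blue) in THZ531 minus AZ5576 wells in 5 bins of gene span, with the number of genes under each bin. Right, points give the median log2 difference per bin for THZ531 minus DMSO, AZ5576 minus DMSO and THZ531 minus AZ5576, the last staying between -0.07 and -0.02.

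Host genes of small nucleolar RNAs, whose spliced transcripts carry guide RNAs for ribosomal RNA modification in their introns, were called at 7 of 19, all higher in THZ531 wells. SNHG25 had 505 and 552 CPM in THZ531 wells, against 92.3 to 145 CPM (median 119) in AZ5576 wells and 152 to 510 CPM in DMSO wells (log2 difference 2.14 ± 0.22, adjusted p = 9.00e-15, edgeR). SNHG9 had 822 and 880 CPM in THZ531 wells, against 255 to 308 CPM in AZ5576 wells and 262 to 561 CPM in DMSO wells (1.55 ± 0.16). ZFAS1 had 429 and 415 CPM in THZ531 wells, against 213 to 269 CPM in AZ5576 wells and 246 to 374 CPM in DMSO wells (0.81 ± 0.12). THZ531 wells were above all AZ5576 wells for these 3. GAS5, another host gene, was 561 and 474 CPM in THZ531 wells and 478 to 549 CPM in AZ5576 wells, with a difference of 0.01 ± 0.10, so the list did not move as 1. Of 40 ribosome biogenesis genes 3 were higher (NOP56, NOP16 and POLR1C) and 0 lower. NOP56, a core protein of box C/D particles that itself hosts such RNAs, had 174 and 218 CPM in THZ531 wells and 68.7 to 103 CPM in AZ5576 wells (1.24 ± 0.17). POLR1C, a subunit shared by RNA polymerases I and III, had 58.9 and 37.5 CPM in THZ531 wells, 14.7 to 29.8 CPM in AZ5576 wells and 66.4 to 114 CPM in DMSO wells, so both compounds lay below DMSO. Without the plate 1 THZ531 well POLR1C was not called (log2 0.82), and NOP16 was not called without either THZ531 well (0.59 and 0.54).

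Of 21 heat shock genes, the near-identical HSPA1A and HSPA1B were the 2 called, both higher in THZ531 wells, and reads can be split between them. HSPA1A had 177 and 175 CPM in THZ531 wells, against 13.2 to 46.3 CPM in AZ5576 wells and 68.9 to 125 CPM in DMSO wells (2.49 ± 0.22, adjusted p = 4.97e-19, edgeR). DNAJB1, their co-chaperone, did not pass the test, at 42.1 and 31.2 CPM in THZ531 wells, 13.0 to 30.1 CPM in AZ5576 wells and 108 to 184 CPM in DMSO wells. Of 19 histone genes, measured here only through polyadenylated RNA, 4 were higher in THZ531 wells. H2BC21 had 81.4 and 68.7 CPM in THZ531 wells, against 6.51 to 23.1 CPM in AZ5576 wells and 6.95 to 25.6 CPM in DMSO wells (2.68 ± 0.32, adjusted p = 1.17e-11, edgeR), and H4C3, H1-10 and H2AX followed with 1.22, 1.60 and 0.91. Histone genes also have near-identical copies, so these values are uncertain. Of 25 genes of the integrated stress and unfolded protein responses, DDIT4, CEBPB and VEGFA were higher in THZ531 wells. DDIT4, an inhibitor of mTORC1, had 53.3 and 21.8 CPM in THZ531 wells, against 0 to 10.7 CPM in AZ5576 wells and 33.9 to 80.3 CPM in DMSO wells. Without the plate 1 THZ531 well DDIT4 stood at 1.41 and H1-10 at 1.12, and neither was called. CEBPB and VEGFA lost their calls in 4 and 5 of the 8 fits that left out 1 well, and H2AX in 2.

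Most erythroid genes were not called. Of 21 erythroid transcription factors, HHEX, STAT5A and GATA2 were higher in THZ531 wells and 0 were lower, with a list median of 0.04. An unadjusted p under 0.05 (edgeR) was found for 6 of the 21. Their median half-width of the 95% interval was 1.09, so a 2-fold difference would mostly not have been detectable. THZ531 wells lay above all AZ5576 wells at 4 of the 21 and below all at 3. Of those below, KLF3 had 1 count against 32 and LMO2 1 against 25, and neither was called. HHEX, a homeobox factor of early blood cells, had 101 and 90.5 CPM in THZ531 wells, against 6.61 to 23.9 CPM (median 14.6) in AZ5576 wells and 39.4 to 86.4 CPM in DMSO wells (2.71 ± 0.32, adjusted p = 5.95e-12, edgeR). GATA2, the stem and progenitor factor, had 25.3 and 31.2 CPM in THZ531 wells and 0 to 15.0 CPM in AZ5576 wells, and lost its call in 5 of the 8 fits that left out 1 well, at log2 1.57 to 2.00 over all 8. STAT5A was not called without either THZ531 well, at 0.78 and 0.94. GATA1, the master regulator of the lineage, had 216 and 228 CPM in THZ531 wells and 195 to 239 CPM in AZ5576 wells (difference 0.04, 95% interval -0.32 to 0.40). KLF1, an activator of globin genes, had 39.3 and 28.1 CPM in THZ531 wells and 15.2 to 32.2 CPM in AZ5576 wells, both below the 83.2 to 179 CPM of DMSO wells. Of 33 globin, haem and erythroid effector genes 0 were called by edgeR, DESeq2 or limma-voom, with 7 at an unadjusted p under 0.05. The fetal globin gene HBG2 had 24600 and 23400 CPM in THZ531 wells, against 23300 to 26200 CPM in AZ5576 wells and 12300 to 18400 CPM in DMSO wells, and it shares reads with HBG1.

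Most other lists showed few or no calls, where 1.54% of all genes tested were called higher and 0.262% lower. Such small counts are not read as results about the lists. Among 33 mitotic, 12 BCL2 family and 83 cytosolic ribosomal protein genes 0 were called by edgeR, DESeq2 or limma-voom, with 1, 0 and 4 at an unadjusted p under 0.05. The 29 proteasome genes had 0 calls by the 3 tools and 2 at an unadjusted p under 0.05. The 19 glycolytic genes had 0 calls by edgeR and DESeq2, 1 higher by limma-voom, and 1 at an unadjusted p under 0.05. Of 45 DNA replication genes 1 was higher, GMNN, the inhibitor of replication licensing, at 202 and 172 CPM in THZ531 wells and 108 to 141 CPM in AZ5576 wells (0.57 ± 0.16), and it was not called without either THZ531 well, at 0.45 and 0.68. Of 36 SR and hnRNP splicing factors SRSF2 (0.56 ± 0.13) and U2AF2 (0.86 ± 0.22) were higher, of 11 interferon genes ISG15 (0.79 ± 0.22), and of 14 NF-kB genes NFKBIA (2.52 ± 0.74). All 4 lost their calls in at least 1 of the 8 fits, SRSF2 without either THZ531 well, U2AF2 without that of plate 2 (0.45), ISG15 in 4 and NFKBIA in 6. Of 179 ZNF genes 5 were higher and 0 lower, with 22 at an unadjusted p under 0.05 (edgeR). The share higher was above the 1.54% of all genes tested. Fewer ZNF genes were higher when 1 THZ531 well was left out. Outside the lists, and picked after their values were seen, CITED2, a partner of CBP and p300, had 109 and 78.0 CPM in THZ531 wells, against 1.64 to 9.91 CPM in AZ5576 wells and 12.5 to 34.7 CPM in DMSO wells. POP7, a subunit of RNase P, had 241 and 237 CPM in THZ531 wells, against 42.6 to 86.8 CPM in AZ5576 wells and 194 to 294 CPM in DMSO wells.

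**Figure D5:**
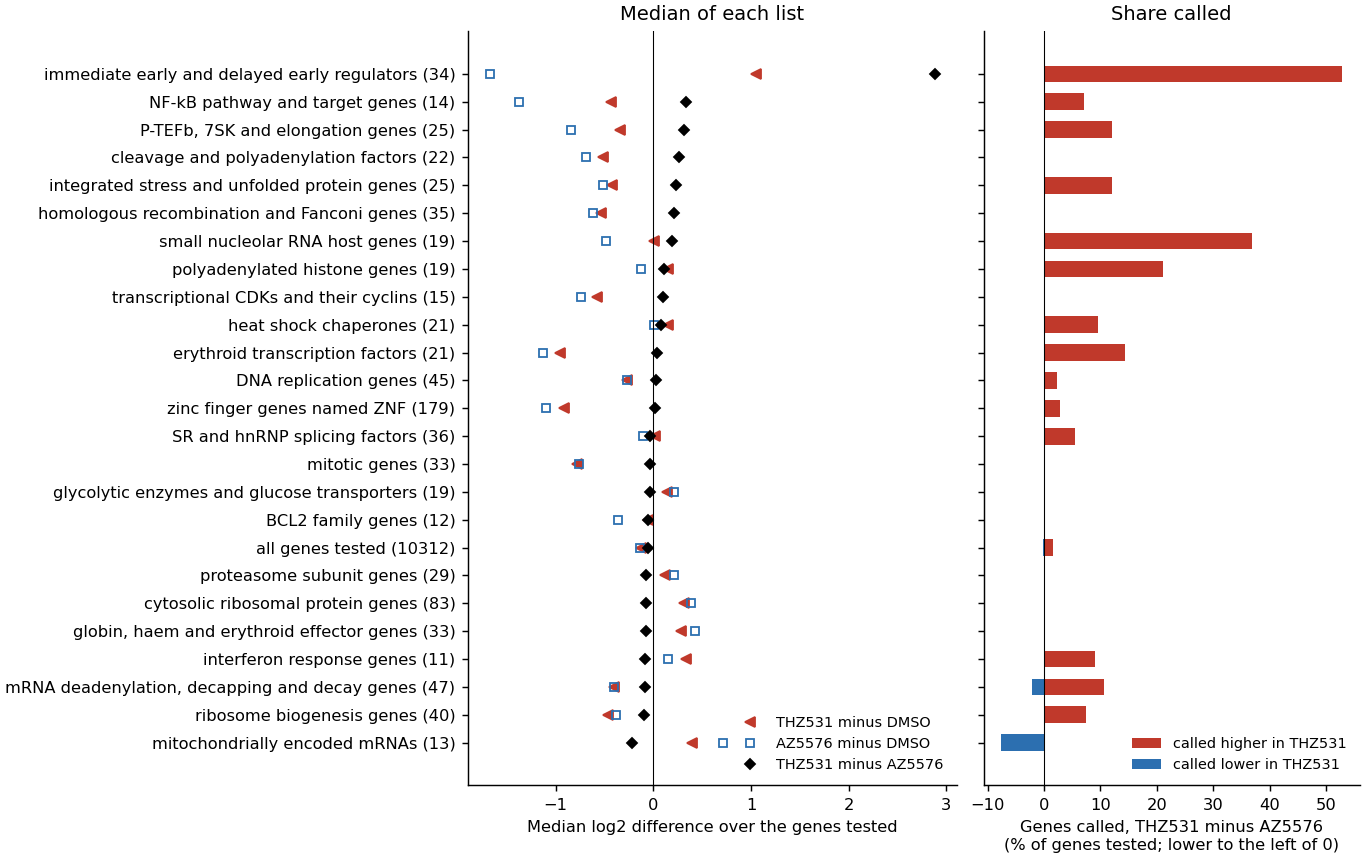
Left, for each list (number of genes tested in brackets) a red triangle gives the median log2 difference of THZ531 minus DMSO, a blue square that of AZ5576 minus DMSO and a black diamond that of THZ531 minus AZ5576. Right, bars give the share of each list called higher (red) or lower (blue) in THZ531 minus AZ5576, where the early response list stands out with 18 of 34 and the snoRNA host genes follow with 7 of 19.

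Also among the largest differences by the naming rule, SNAP47, a SNARE protein of membrane fusion, had 146 and 172 CPM in THZ531 wells, against 6.62 to 21.5 CPM in AZ5576 wells and 44.3 to 118 CPM in DMSO wells (3.33 ± 0.30). SERTAD1, a cell cycle regulator that binds CDK4, had 56.1 and 68.7 CPM in THZ531 wells, against 3.28 to 13.1 CPM in AZ5576 wells (2.75 ± 0.41). MIR23AHG, the host transcript of the miR-23a cluster, had 36.5 and 31.2 CPM in THZ531 wells, against 0 to 6.62 CPM in AZ5576 wells and 16.3 to 75.3 CPM in DMSO wells (2.92 ± 0.62), and was not called without the plate 1 THZ531 well (2.72). The strand setting of the counts is not given in the sources used here, so reads of genes that overlap cannot be told apart.

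The 27 genes lower in THZ531 wells were mostly near the threshold. Each of the 11 named by the rule lost its call in at least 1 of the 8 fits that left out 1 well, against 21 of the 44 named higher genes. RELL2, a protein related to the receptor RELT, had 0 and 3.12 CPM in THZ531 wells, against 13.2 to 34.7 CPM in AZ5576 wells and 18.8 to 59.0 CPM in DMSO wells. This was 1 count against 62, a ratio per total count of 0.0699 with a 95% counting interval of 0.00174 to 0.404. JPT2, a protein of calcium signalling, had 22.5 and 25 CPM in THZ531 wells, against 39.7 to 75.4 CPM in AZ5576 wells and 37.9 to 99.2 CPM in DMSO wells (-1.36 ± 0.34, adjusted p = 0.0104, edgeR). CTTN, the actin-binding protein cortactin, had 44.9 and 31.2 CPM in THZ531 wells, against 46.3 to 95 CPM in AZ5576 wells and 46.0 to 115 CPM in DMSO wells (-1.11 ± 0.31). For these 3 the THZ531 wells lay below the DMSO wells and the AZ5576 wells overlapped them. BAZ2B (-1.24 ± 0.34), ZFAND1 (-1.64 ± 0.44), PMF1 (-0.73 ± 0.21) and LINC02609 (-0.93 ± 0.26) were also lower in THZ531 wells. Relative to DMSO, ZFAND1 stood at log2 -1.65 with THZ531 and -0.02 with AZ5576. BAZ2B stood at -0.81 with THZ531 and 0.43 with AZ5576, PMF1 at -0.5 and 0.23, and LINC02609 at -0.65 and 0.28. BAZ2B, PMF1 and LINC02609 were each called higher with AZ5576 against DMSO and not called with THZ531 against DMSO. JPT2 ranged from -1.42 to -1.25 over the 8 fits, CTTN from -1.46 to -0.84 and BAZ2B from -1.80 to -0.76.

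For other lower genes the level in AZ5576 wells stood above the DMSO wells, and the examples here do not show how many of the 27 did so. HUNK, a kinase gene picked after its values were seen, had no count in either THZ531 well, against 14.7 to 52.9 CPM in AZ5576 wells and at most 3.49 CPM in DMSO wells. Against a floor of 3 counts over the 2 THZ531 wells it was at least 5.38-fold lower there, and its call held in all 8 fits. The gene line ENSG00000266658, which the tables used here do not name, had 988 and 918 CPM in THZ531 wells, against 1100 to 2000 CPM in AZ5576 wells and 108 to 246 CPM in DMSO wells (-0.67 ± 0.14, adjusted p = 3.85e-04, edgeR). RNU5A-1, a gene of the U5 RNA of the spliceosome, was also picked after its values were seen. MAC-seq reads polyadenylated RNAs, so counts on this gene line need not follow the level of the U5 RNA. RNU5A-1 had 14 and 15.6 CPM in THZ531 wells, 45.8 to 109 CPM in AZ5576 wells and at most 3.48 CPM in DMSO wells (-2.11 ± 0.46). For ENSG00000266658 and RNU5A-1 both compounds lay above DMSO and THZ531 less so, and each lost its call in 1 of the 8 fits.

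Of 13 mitochondrially encoded mRNAs, MT-CO1, a catalytic subunit of cytochrome c oxidase, was lower in THZ531 wells, with 7910 and 6830 CPM there, against 8820 to 10800 CPM in AZ5576 wells and 4150 to 7690 CPM in DMSO wells. The difference was small (-0.41 ± 0.12, adjusted p = 0.0431, edgeR), was not called by DESeq2 or limma-voom and lost its call in 6 of the 8 fits, at -0.45 to -0.37. The list median was -0.22, against 0.40 for THZ531 and 0.71 for AZ5576 relative to DMSO. Of the 13, 1 had a direct difference above 0. An unadjusted p under 0.05 (edgeR) was found for 7 of the 13, against 1093 of the 10312 genes tested. THZ531 wells lay below all AZ5576 wells at 7 of the 13 and above all at 1, against 7.13% and 6.91% of all genes tested. GAPDH, a glycolytic enzyme, had 4890 and 5820 CPM in THZ531 wells, against 3870 to 4610 CPM in AZ5576 wells (0.31 ± 0.10, adjusted p = 0.0808, edgeR). ACTB, beta-actin, had 1150 and 1170 CPM in THZ531 wells, against 932 to 1150 CPM in AZ5576 wells (0.13 ± 0.10).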

How the data were processed

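Polyadenylated RNA of K562 cells was measured by MAC-seq in 192 wells on 2 plates. The deposited tables give counts per gene and well, and the authors' estimated counts were used as deposited, since some of their summary lines are fractional. All 57905 gene lines and 92 ERCC lines hold whole counts, and 6 summary lines were left out. The submitters' processing notes name R 4.0.2, cutadapt 2.1, FastQC 0.11.6, bcl2fastq 2.17.1.14 and the build GRCh37 (hg19). Which aligner, counter or gene models served is not given in the sources used here. Counts were taken to be reads and not molecules, since human counts came to 83.9% to 88.9% of the reads mapped to genes over all wells. The THZ531 wells had 1.77 and 1.73 reads per molecular identifier and the AZ5576 wells 1.81 to 2.37. Counting intervals thus cover counting error only. Symbols came from a table of Ensembl identifiers and GENCODE 29, which named 52338 gene lines; spans are from GENCODE 29, of another build, and used as lengths only.

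edgeR 4.0.16 in R 4.3.3 was run on all 192 wells with filterByExpr, TMM factors, a term per treatment and a plate term. All wells passed the minimum of 10000 counts. THZ531 minus AZ5576 and both contrasts with DMSO used the quasi-likelihood test with Benjamini-Hochberg adjustment over the 10312 genes tested (threshold 0.05). CPM use TMM-scaled totals, except those of the cell type markers, which use all human counts of the well without scaling. Wells with the same number on the 2 plates hold the same treatment, per the deposited annotation, and the plate term is the replicate block. The wells of 1 position on the 2 plates differed by a chi-square over its degrees of freedom of 1.45 for THZ531 and 1.27 to 1.43 for AZ5576, and none was counted as a copy of another. On simulated data of this comparison, 31% of genes changed 2-fold (log2 of 1) and 68% of those changed 4-fold (log2 of 2) were recovered, with 0 false calls. The counts were drawn with the same spread that the test was then given, set by the level of a gene alone. No plate or other treatment had an effect in them. These figures hold for that simpler setting and can be better than those of the real wells.

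Genes were named by rule: per direction the 10 largest differences among genes called whose wells did not overlap and whose mean log2 CPM reached 5, the up to 4 smallest p-values called in each of 24 lists, and a fixed set looked up throughout. The comparison, lists and genes were chosen with earlier results of these data known. Alternatives used other scalings (DESeq2 size factors, library size, ERCC counts), tests (DESeq2 1.42.0, limma-voom 3.58.1), filters, wells in the fit, plates and left-out wells.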

Additional observations from a re-analysis of the deposited data

Results flagged for a closer look

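IER2 in AZ5576 replicate 3 (plate 1, position 48) had 94.5 CPM, apart from the other 5 AZ5576 wells at 52.9 to 65.5 CPM. CTTN in AZ5576 replicate 1 (plate 1, position 11) had 46.3 CPM, apart from the other 5 AZ5576 wells at 77.3 to 95 CPM. In both genes the gap to the nearest well was large for the range of the 6 wells (Dixon's test, critical value 0.625). These were 2 of 48 groups of wells examined so, and chance flags about 1 in 20 groups.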

How the results depend on the processing

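No gene called between THZ531 and AZ5576 changed direction under any alternative run, and the scalings moved the median of all genes by at most 0.09 (log2). The 186 calls (159 higher, 27 lower in THZ531) became 122 (112 and 10) with ERCC scaling, 61 (61 and 0) in plate 1 alone, 57 (55 and 2) in plate 2 alone, 104 (96 and 8) against AZ5576 position 11, 134 (114 and 20) against position 36 and 91 (79 and 12) against position 48. The lower genes numbered 13 with library size alone, 5 with DESeq2, 12 with limma-voom, 13 with a CPM of at least 1 in 2 wells, 9 in the fit of THZ531, AZ5576 and DMSO wells, and 75 in the fit of THZ531 and AZ5576 wells alone. Leaving out 1 well at a time gave 87 to 183 calls, 81 to 159 higher and 6 to 27 lower, with the lowest counts without a THZ531 well. Without the plate term (no replicate block) 173 genes were called, and 172 of them were among the 186. The early response list had 12 to 20 higher and 0 lower members over the alternatives, and 13 of its 18 higher members were called in each of the 8 fits that left out 1 well. The causes of these changes were not tested, beyond the fewer wells that several alternatives hold by construction. No well of either compound lies in the first plate column, but some of the 24 DMSO wells do. The 16 DMSO wells outside it held 446074 to 1030814 human counts, against 173553 to 1030814 over all 24. Their median of human counts per ERCC count was 5.31, against 4.94 over all 24. The alternative without that column was not run, so its part in the comparisons with DMSO was not tested. Depth limits the comparison most for genes of low level, since THZ531 had 2 wells of 418108 and 358938 counts.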
